A study of Mus musculus with 21 samples.

Results

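Etv2 is an ETS-family transcription factor that mesodermal progenitors switch on for a short time and that the endothelial and blood lineages need. Its effect was measured in 2 ways in mouse embryonic stem cells differentiated as embryoid bodies, and the resulting effects were set against each other gene by gene. All cells compared were sorted on day 4 as PDGFRalpha-FLK1+ (SP below), which means without the receptor encoded by Pdgfra and with FLK1, the VEGF receptor encoded by Kdr. The forced effect is the log2 fold change of iETV2 SP cells, a line with doxycycline-inducible Etv2 given 2 µg per ml doxycycline from day 2.5, over SP cells of A2lox.Cre, the line labelled as wildtype (WT). The natural effect is the log2 fold change of Etv2-tdTomato positive over Etv2-tdTomato negative SP cells of TGET embryoid bodies, a line that carries the reporters T-GFP and Etv2-tdTomato. The comparison rests on 12 of the 21 libraries of the series, 3 in each of the 4 groups, and the 2 effects share no library. The title of the series names the endothelial, blood and cardiac lineages, and the gene lists below begin with these.

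The labels set limits on both contrasts. Doxycycline is given in the labels of iETV2 alone, and WT SP cells were not split by a reporter, so the line, its cassette, the drug and Etv2 cannot be told apart in the forced effect. The natural effect compares cells of 1 line in the same gate that differ in whether the reporter is on, with no manipulation of Etv2. The labels name no separate cultures or clones, so p-values measure the spread between libraries, which may be technical. In sorted bulk RNA, fewer cells of a type and less RNA per cell cannot be told apart. Counts assigned to genes came to 24031942 to 28184904 per library in the iETV2 and WT cells and 27415801 to 30613029 in the TGET cells. At this depth 3 counts stand for 0.098 to 0.125 CPM (counts scaled to a common library total). Pseudogenes took 0.549 to 0.601% of counts in the iETV2 and WT libraries and 12.2 to 13.2% in the TGET libraries, and no level was compared between these sets. Ribosomal RNA took 0.876 to 2.09% of counts in the iETV2 SP and WT SP libraries. In the TGET cells it took 1.28% in Etv2-positive replicate 3 and 1.4% in Etv2-negative replicate 2. No other TGET SP library held more than 0.432%. Below, these 2 TGET libraries are called those of high ribosomal RNA, which is relative to the other TGET SP libraries alone. Counts that move by over 1.5 times without these 2 libraries are given with both values.

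Etv2 itself (chr7:30633616-30635852, minus strand, mm10) was higher in iETV2 than in WT cells and higher in Etv2-positive than in Etv2-negative cells. It had 233, 232 and 250 CPM in iETV2 SP cells, against 88.9, 73.8 and 118 CPM in WT SP cells. In the TGET line it had 79.5, 108 and 78.6 CPM in Etv2-positive cells, against 27.7, 26.5 and 25.6 CPM in Etv2-negative cells. Neither pair of groups overlapped, as was so for 60.6% of genes in the iETV2 and WT libraries and 47% in the TGET SP libraries. The forced effect on Etv2 was 1.35 ± 0.14 and the natural effect 1.74 ± 0.14 (log2 fold change ± standard error, n = 3 libraries per group). The difference, forced minus natural, was -0.39 ± 0.22 and was not called at an adjusted p of 0.14 (edgeR's quasi-likelihood test, Benjamini-Hochberg). It reached -0.52 and was called without WT SP replicate 2. Reads of the inducible transgene and of the endogenous gene were not separated in these counts.

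The genes of the sort were measured next. Kdr (chr5:75932827-75978458) had 683, 952 and 936 CPM in iETV2 SP cells, against 830, 886 and 957 CPM in WT SP cells. In the TGET cells it had 599, 631 and 580 CPM in Etv2-positive cells, against 520, 543 and 514 CPM in Etv2-negative cells, and neither effect on Kdr was called. The natural effect on Kdr was called with no filter or with the compared groups alone in the fit (0.19 each). Pdgfra RNA was present in every group, although the gate selects cells without the receptor on the surface. It had 3.18, 10.3 and 6.73 CPM in iETV2 SP cells, against 31, 44.6 and 44.3 CPM in WT SP cells, and 38.9, 47.6 and 25.8 CPM in Etv2-positive cells, against 53.7, 59.7 and 41.6 CPM in Etv2-negative cells. Pdgfra fell in the forced effect (-2.57 ± 0.32), and its natural effect of -0.47 ± 0.20 was not called, but it was with a replicate block or no filter (-0.48 each) and without Etv2-positive replicate 2 (-0.68). The difference of -2.10 ± 0.40 was called. T, the nascent mesoderm factor behind the T-GFP reporter, had a forced effect of 0.40 and a natural effect of -0.23, of which neither was called. The forced effect on T was called with no filter (0.42) and without iETV2 SP replicate 1 (0.71), the natural effect with no filter (-0.24), and the difference was called with a replicate block (0.51). Hprt, beside which A2lox.Cre derivatives carry their inducible cassette, had 91.4, 96.3 and 83.2 CPM in iETV2 SP cells, against 3.14, 4.64 and 3.56 CPM in WT SP cells. Its forced effect was 4.57 ± 0.13 and its natural effect 0.13 ± 0.08, and the difference was called.

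Over the transcriptome the forced effect reached more genes. It was called for 50.8% of 16288 genes, 4296 higher and 3978 lower, at a Benjamini-Hochberg adjusted p below 0.05, which is the meaning of "called" throughout. The natural effect was called for 25.5% of 17690 genes, 2314 higher and 2190 lower. Upper-quartile scaling gave 1800 higher and 2653 lower for the natural effect, and 1286 were higher and 1168 lower without the 2 libraries of high ribosomal RNA. Among the 15354 genes tested in both sets, the forced effect was called higher for 25% and lower for 25.7%, and the natural effect for 14.1% and 13.2%. The difference of the effects was called for 51.2%, with 3946 genes positive (25.7%) and 3916 negative (25.5%).

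Of these 15354 genes, 2651 were called in both effects. They split into 534 higher in both (3.48%), 458 lower in both (2.98%), 744 forced higher and natural lower (4.85%) and 915 forced lower and natural higher (5.96%). Without the 2 libraries of high ribosomal RNA these classes held 320, 239, 429 and 527 genes in the same order. The 1659 genes of opposite sign (10.8%) thus outnumbered the 992 of the same sign, which were 37.4% of those called in both. Upper-quartile scaling turned the split of the opposite genes to 886 forced higher and 667 forced lower. The 534 genes higher in both were 13.9% of the genes called higher in the forced effect and 24.7% of those called higher in the natural effect. Across all genes tested the effects had a Pearson r of 0.05 and a Spearman rho of -0.12. These correlations are over genes, which are not independent replicates. Among the 534 genes higher in both, the difference was positive for 177, negative for 30 and not called for 327. Among the 458 lower in both, it was negative for 157, positive for 6 and not called for 295.

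**Figure D1:**
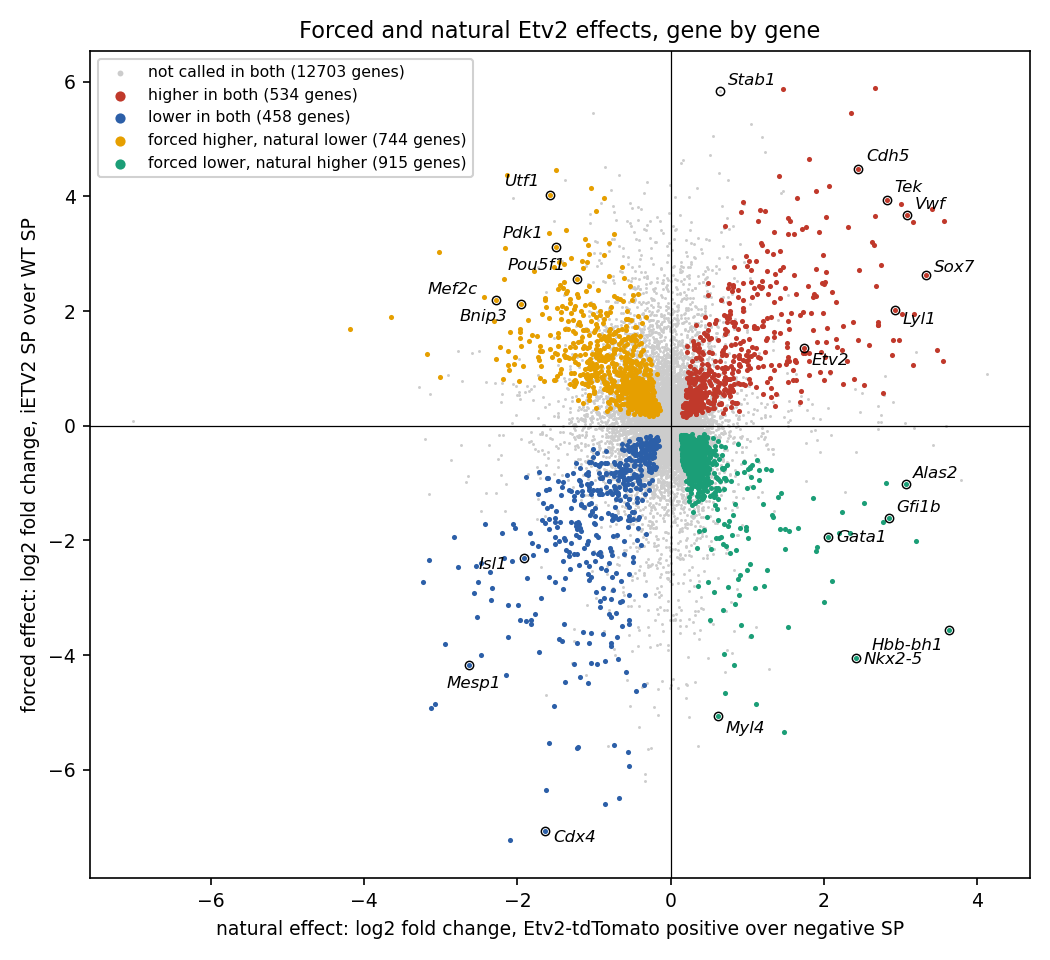
Each point is 1 of 15354 genes, with the natural effect across (log2 fold change, Etv2-tdTomato positive over negative SP) and the forced effect up (log2 fold change, iETV2 SP over WT SP), and colours mark genes called in both effects. The upper right holds endothelial genes such as Cdh5 and Tek, the lower right holds Nkx2-5, Gata1 and Hbb-bh1, and the upper left holds Pou5f1, Utf1 and Pdk1.

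The share of matching signs differed with the size and direction of the natural effect. Of the 305 genes that were at least 2-fold higher in Etv2-positive cells, 58.7% were also called higher in the forced effect and 15.4% were called lower. Of the 1515 genes higher by less than 0.5 on the log2 scale, 14% were called higher in the forced effect and 51.6% lower. Genes that were at least 2-fold lower in Etv2-positive cells, 529 in all, were called lower in the forced effect in 29.7% and higher in 34.8%. Over all genes tested in both sets, 25% were called higher and 25.7% lower in the forced effect. Most of the large natural increases were thus shared. The share of large natural decreases called lower was near that over all genes, and more of them were called higher than lower. With at least a 2-fold change required in both effects, 154 genes were higher in both, 137 lower in both, 138 forced higher and natural lower and 36 forced lower and natural higher, so that 62.6% had the same sign.

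**Figure D2:**
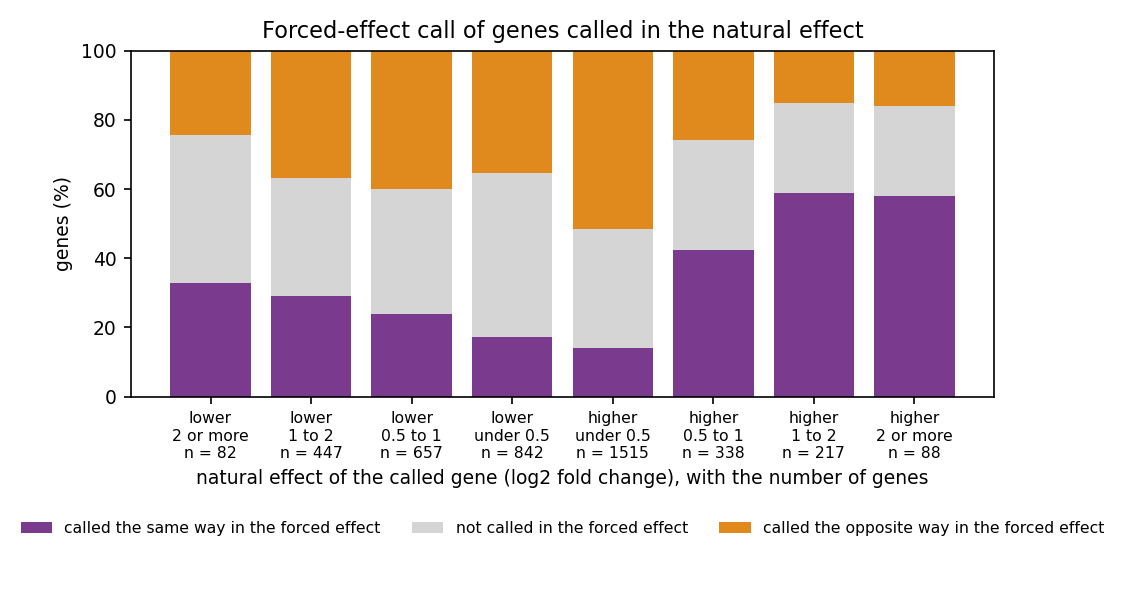
Bars show, for genes called in the natural effect and grouped by its sign and size (log2 fold change, number of genes below each bar), the percent called the same way, not called, or called the opposite way in the forced effect. The share called the same way was 58% among the 88 genes with a natural increase of 2 or more and 14% among the 1515 with an increase under 0.5.

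The medians of the gene lists differed in sign and size between the effects. The endothelial median was above 0 in both effects and the paraxial and streak medians below 0 in both. The cardiac progenitor and lateral plate medians were far below 0 in the forced effect and closer to 0 in the natural effect. The pluripotency, epithelial and glycolysis medians were above 0 in the forced and below 0 in the natural effect, and the sarcomere and primitive erythroid medians the other way round. The hematopoietic median was above 0 in both and higher in the natural effect. The median over all genes was -0.02 in the forced and -0.01 in the natural effect. The list counts below stand beside the shares over all genes tested in both sets. These were 25% higher and 25.7% lower in the forced effect, and 14.1% higher and 13.2% lower in the natural effect.

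**Figure D3:**
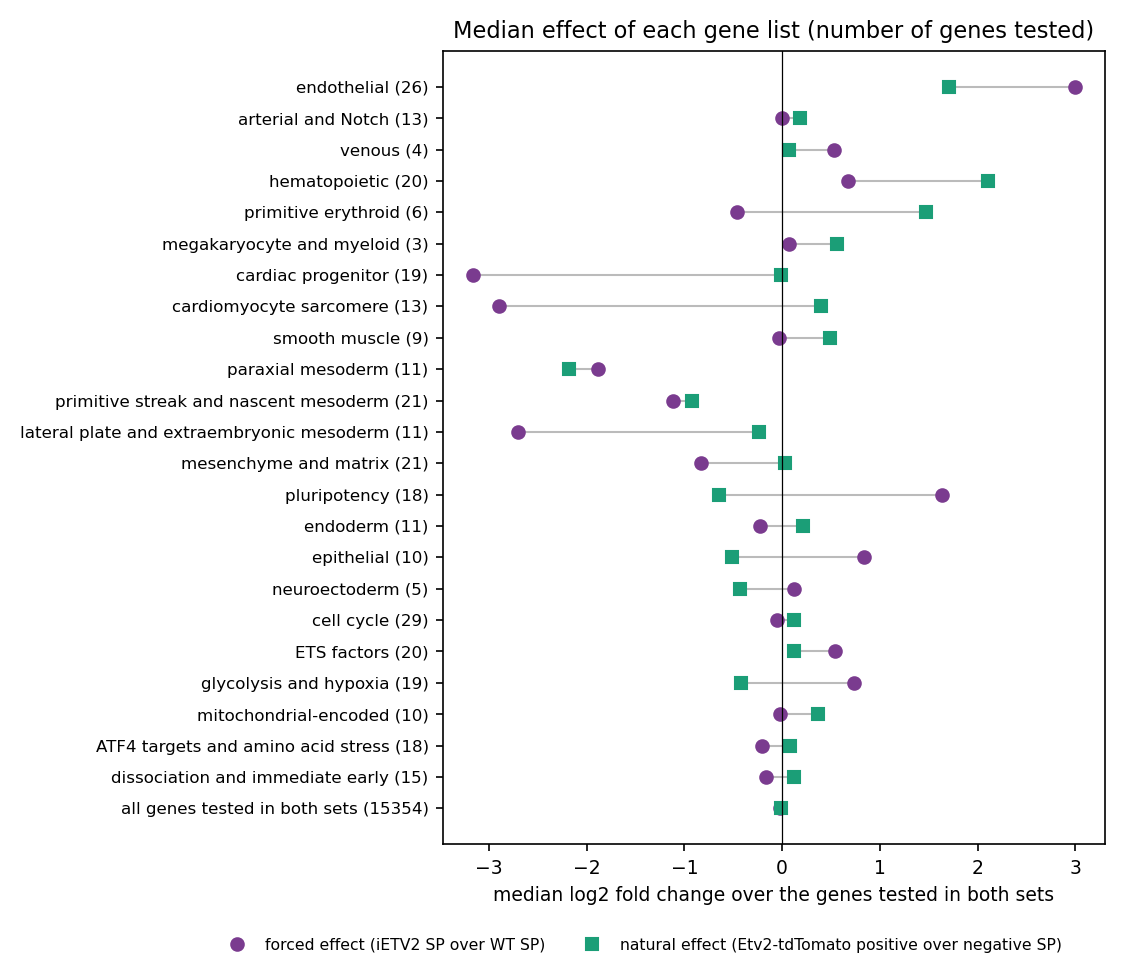
Each row is a gene list with the number of genes tested in both sets; the circle is the median forced effect and the square the median natural effect (log2 fold change). The longest lines join the circles and squares of the cardiac progenitor list (-3.16 forced, -0.01 natural) and the cardiomyocyte sarcomere list (-2.90 forced, 0.40 natural).

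Most endothelial genes rose in both effects. Of 26 endothelial genes tested in both sets, 25 were called higher in the forced effect and 1 was not called, and 21 were called higher in the natural effect and 5 were not called. All 21 were higher in both effects. The median was 2.99 in the forced and 1.71 in the natural effect. The difference was positive for 17 and negative for 1, Plvap (-0.67), which codes for a diaphragm protein of fenestrated vessels. No difference was negative without WT SP replicate 1 or without both libraries of high ribosomal RNA, and 2 were with a replicate block. The list summed to 4088 to 5289.9 CPM in iETV2 SP cells, against 1405 to 1432 CPM in WT SP cells, and to 937 to 1128 CPM in Etv2-positive cells, against 679 to 739 CPM in Etv2-negative cells. These sums include Kdr, the gene of the gate, which was called in neither effect. Kdr alone had 683 to 952 CPM in iETV2 SP cells and 830 to 957 CPM in WT SP cells. In the TGET line it had 580 to 631 CPM in Etv2-positive and 514 to 543 CPM in Etv2-negative cells.

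Tek, which codes for the angiopoietin receptor TIE2 (chr4:94739289-94874976), had 248, 284 and 286 CPM in iETV2 SP cells, against 25.3, 15.6 and 12.5 CPM in WT SP cells. It had 13.3, 14.7 and 31.6 CPM in Etv2-positive cells, against 1.54, 2.89 and 3.95 CPM in Etv2-negative cells. The forced effect on Tek was 3.94 ± 0.22 and the natural effect 2.82 ± 0.45, with groups apart in both sets. The difference of 1.11 ± 0.54 was not called, but it was called with a replicate block (1.17) and without Etv2-negative replicate 1 (1.40), Etv2-positive replicate 3 (1.63) or WT SP replicate 1 (1.46). Cdh5, the cadherin of endothelial junctions (chr8:104101625-104144511), had 306, 545 and 500 CPM in iETV2 SP cells, against 24.5, 20.9 and 15.3 CPM in WT SP cells. Cdh5 had 11.3, 12.3 and 23.1 CPM in Etv2-positive cells, against 1.43, 3.12 and 3.99 CPM in Etv2-negative cells. Here the forced effect was the larger by a called difference of 2.03 ± 0.46 (4.47 against 2.45).

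Stab1, Tie1 and Sox18 had the largest differences of the list. Stab1, a scavenger receptor of sinusoidal endothelium, had 46.5, 110 and 102 CPM in iETV2 SP cells, against 2.12, 1.33 and 1.02 CPM in WT SP cells. In the TGET cells Stab1 stayed below 1 CPM in all 6 libraries, with a natural effect of 0.64 ± 0.50 that was not called. Tie1, the partner receptor of TIE2, had a forced effect of 5.46 ± 0.26 and a natural effect of 2.36 ± 0.56, which was 1.40 and not called without the 2 libraries of high ribosomal RNA. Sox18 (4.65 forced, 1.81 natural), Esam (3.98 and 1.65) and Nos3 (4.09 and 1.90) also had positive differences. For the transcription factors Sox7, Erg and Fli1 the effects lay closer together. Sox7 had a forced effect of 2.63 and a natural effect of 3.33, with a difference of -0.70 that was called only with a replicate block (-0.71), and Erg had 2.44 forced and 2.68 natural. Fli1 had a forced effect of 2.98 and a natural effect of 1.98; its difference of 1.00 ± 0.34 was lost without Etv2-positive replicate 1 or 2, Etv2-negative replicate 2 or 3 or WT SP replicate 3 (0.81 to 0.88). Vwf, which codes for von Willebrand factor, Pcdh12, an endothelial protocadherin, and Edil3, an integrin-binding matrix protein, were among the 10 genes with the largest shared increase. Their forced effects were 3.67, 2.81 and 2.72 and their natural effects 3.09, 2.75 and 2.46, and no difference was called.

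The promoters of Tie1 and of Lyl1, a blood factor described below, are shown because both genes were higher in both effects and both windows hold an ETS motif. ETS factors bind a GGAA core, and 2 forms were searched on both strands, ACAGGAA and CCGGAAG; they differ in the base before the core, so 1 core cannot be both. Capitals mark the motif, which reads as its reverse complement where it lies on the other strand. Each window runs from 250 bases before to 50 bases after the gene's start, in RefSeq on GRCm38.p6. Tie1 lies on chr4:118489800-118490099, minus strand, and Lyl1 on chr8:84701207-84701506, plus strand.
Tie1: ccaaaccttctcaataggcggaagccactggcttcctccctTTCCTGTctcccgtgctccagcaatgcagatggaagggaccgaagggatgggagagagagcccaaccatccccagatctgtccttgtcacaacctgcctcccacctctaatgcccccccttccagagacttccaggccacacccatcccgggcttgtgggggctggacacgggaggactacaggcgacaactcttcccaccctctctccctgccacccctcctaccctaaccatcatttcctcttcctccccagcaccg
Lyl1: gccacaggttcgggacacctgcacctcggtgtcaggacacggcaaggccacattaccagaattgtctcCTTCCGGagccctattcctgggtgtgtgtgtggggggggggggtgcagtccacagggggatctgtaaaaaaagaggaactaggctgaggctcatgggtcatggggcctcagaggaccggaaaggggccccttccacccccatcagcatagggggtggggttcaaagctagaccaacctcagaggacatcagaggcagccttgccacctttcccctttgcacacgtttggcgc

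The ACAGGAA form stood in 14% of the 150 windows of genes at least 2-fold higher in both effects, in 8.64% of the 544 windows of all genes higher in both, in 7.14% of the 13942 windows that were matched by symbol to genes tested in both sets and in 8.67% of the 32851 windows in the table. Among genes at least 2-fold forced higher and natural lower it stood in 4.96% of 141 windows, and among genes at least 2-fold forced lower and natural higher in 11.5% of 26 windows. The CCGGAAG form was the rarer of the pair in the shared increases (4.67%) and stood in 16.5% of windows of all genes tested. It stood in 24.7% of 869 windows of the genes called forced lower and natural higher, but in 3.85% of the 26 windows of those with at least a 2-fold change in both. A letter match describes these windows and does not show binding.

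Most blood genes rose in the natural effect, and they split in the forced effect. Of 20 hematopoietic genes tested, 17 were called higher and 3 were not called in Etv2-positive cells, with a median of 2.11. In the forced effect 10 were called higher and 5 lower, with a median of 0.67. The difference was negative for 12 and positive for 3, and 7 genes were higher in both while 5 had opposite signs, Gata1, Gfi1b, Nfe2, Runx1 and Zfpm1. The list also holds genes that endothelial progenitors express. It summed to 1468 to 1556 CPM in iETV2 SP cells, against 832 to 1033 CPM in WT SP cells, and to 747 to 1129 CPM in Etv2-positive cells, against 340.1 to 405 CPM in Etv2-negative cells.

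The 7 genes higher in both were Lcp1, Spi1, Hhex, Lyl1, Itga2b, Lmo2 and Tal1. Lyl1, a basic helix-loop-helix factor related to Tal1, had a forced effect of 2.02 ± 0.26 and a natural effect of 2.92 ± 0.40, and the difference was not called. Tal1, the master regulator of blood formation, had 300.2, 290 and 290 CPM in iETV2 SP cells, against 161, 126 and 137 CPM in WT SP cells. It had 97.7, 115 and 194 CPM in Etv2-positive cells, against 8.24, 16.9 and 20.4 CPM in Etv2-negative cells. Both increases were called (1.06 ± 0.13 forced, 3.16 ± 0.32 natural), and the natural one was larger by 2.10 ± 0.37 on the log2 scale (difference -2.10). Its bridging partner Lmo2 followed with 0.71 forced and 2.52 natural. Gata2, a factor of blood progenitors, was called in the natural effect alone (0.32 forced, 2.05 natural), with a called difference of -1.73.

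Cbfa2t3, which codes for the corepressor ETO2 of the Tal1 complex, changed in the natural effect alone. It had 51.7, 43.9 and 38.9 CPM in iETV2 SP cells, against 56.4, 37.2 and 37 CPM in WT SP cells, and these groups overlapped. In the TGET line it had 51.7, 54.5 and 98.2 CPM in Etv2-positive cells, against 5.27, 8.22 and 10.9 CPM in Etv2-negative cells. The difference was -3.02 ± 0.39. Ikzf1, a zinc-finger factor of lymphoid and early blood cells, had the same pattern (0.06 ± 0.30 forced, 2.70 ± 0.48 natural), as did Gfi1 (0.54 and 2.78), a repressor that works in endothelial cells as they turn to blood.

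Gata1, the erythroid master factor (chrX:7959260-7978071, minus strand), went opposite ways. It had 2.38, 0.723 and 0.879 CPM in iETV2 SP cells, against 7.96, 4.33 and 2.84 CPM in WT SP cells. In the TGET line Gata1 had 2.47, 1.96 and 6.33 CPM in Etv2-positive cells, against 0.537, 0.649 and 1.4 CPM in Etv2-negative cells. Neither pair of groups overlapped, and the difference was -3.99 ± 0.75; the natural effect of 2.06 was 1.18 and not called without the 2 libraries of high ribosomal RNA. Gfi1b, a repressor of erythroid and megakaryocytic cells, had 4.02, 1.22 and 1.28 CPM in iETV2 SP cells, against 10.3, 4.79 and 4.62 CPM in WT SP cells. It had 3.65, 2.96 and 10.3 CPM in Etv2-positive cells, against 0.287, 0.617 and 1.43 CPM in Etv2-negative cells. The forced decrease of -1.60 was lost without iETV2 SP replicate 3 (-1.30) or WT SP replicate 1 (-1.12), and the difference of -4.45 ± 0.80 stayed called under every alternative that was run. Runx1, required for definitive blood, had 14.6, 16.5 and 12.5 CPM in iETV2 SP cells, against 56.8, 59.3 and 47.2 CPM in WT SP cells. Runx1 had 64.2, 49.9 and 62.8 CPM in Etv2-positive cells, against 37.6, 35.9 and 28 CPM in Etv2-negative cells, with a difference of -2.71 ± 0.21.

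The opposite pattern, higher in the forced effect alone, was seen for Cd34, Kit and Coro1a. Cd34, a sialomucin of endothelial and blood progenitors, had 80.1, 67.3 and 74.7 CPM in iETV2 SP cells, against 2.98, 1.33 and 1.49 CPM in WT SP cells. In the TGET cells Cd34 had 0.7, 1.07 and 2.7 CPM in Etv2-positive cells, against 0.43, 0.617 and 1.12 CPM in Etv2-negative cells; its natural effect of 1.05 was called only with a replicate block (1.00) or no filter (1.04). The difference was 4.21 ± 0.66. Kit, the stem cell factor receptor, had a forced effect of 2.58 and a natural effect of 0.46.

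Primitive erythroid genes were few and low. Of 13 in the list, 6 could be tested in both sets: 4 were called higher in the natural effect, and 1 without the 2 libraries of high ribosomal RNA. In the forced effect 2 were higher and 3 lower; it was 1 higher without WT SP replicate 2 or 3 or iETV2 SP replicate 2 or 3. Hbb-bh1, an embryonic globin, had 0.192, 0.228 and 0.169 CPM in iETV2 SP cells, against 5.02, 1.56 and 0.509 CPM in WT SP cells. It had 1.51, 1.93 and 6.71 CPM in Etv2-positive cells, against 0, 0.292 and 0.511 CPM in Etv2-negative cells. The natural effect on Hbb-bh1 was called by edgeR (3.63) and not by DESeq2 (3.66). It was 2.70 and not called without the 2 libraries of high ribosomal RNA. The difference was -7.19 ± 1.27. Alas2, the heme synthesis enzyme of red cells, had a forced effect of -1.01 and a natural effect of 3.07.

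**Figure D4:**
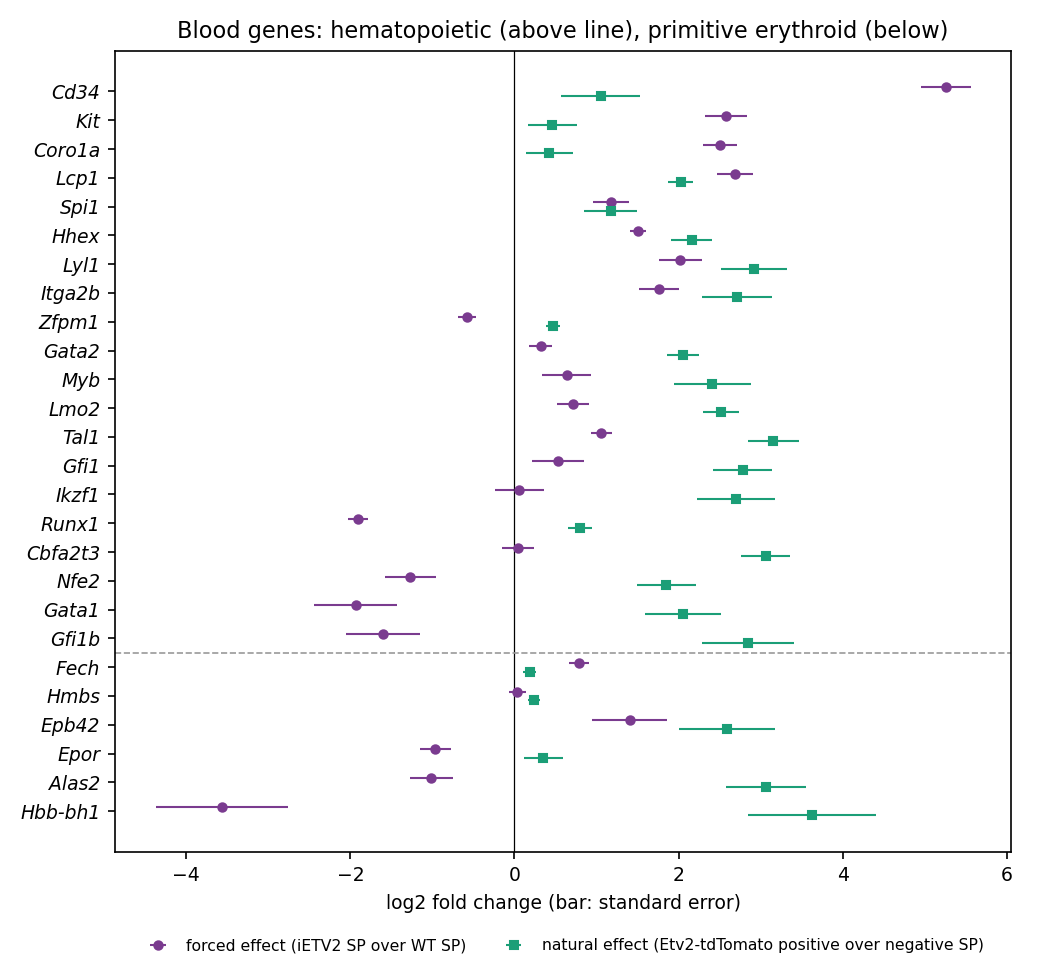
Log2 fold change with standard error for 20 hematopoietic genes (above the dashed line) and 6 primitive erythroid genes (below), in the forced effect (circles) and the natural effect (squares). From Cd34 down to Gfi1b the squares lie first left and then right of the circles, and the circles of Runx1, Nfe2, Gata1 and Gfi1b lie below 0.

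The windows of Ikzf1 and Gata1 are shown because these genes rose in the natural effect and not in the forced one. They were also picked for holding the ACAGGAA form. Ikzf1 has 2 windows in the table; the one at chr11:11689927-11690226, plus strand, holds the motif 3 times and the other holds neither form. Gata1 lies at chrX:7967861-7968160, minus strand, and holds it once.
Ikzf1: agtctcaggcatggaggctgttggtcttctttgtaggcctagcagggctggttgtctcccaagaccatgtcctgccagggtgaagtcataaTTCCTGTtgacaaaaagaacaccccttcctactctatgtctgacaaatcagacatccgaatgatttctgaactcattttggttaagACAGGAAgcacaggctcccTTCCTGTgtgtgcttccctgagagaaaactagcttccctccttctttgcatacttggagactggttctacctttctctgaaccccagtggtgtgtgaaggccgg
Gata1: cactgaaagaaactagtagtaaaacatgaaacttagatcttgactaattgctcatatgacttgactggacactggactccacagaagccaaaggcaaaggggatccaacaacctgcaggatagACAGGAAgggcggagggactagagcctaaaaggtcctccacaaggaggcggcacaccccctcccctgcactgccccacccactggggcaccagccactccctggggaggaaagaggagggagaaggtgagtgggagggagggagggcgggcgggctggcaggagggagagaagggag

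Most cardiac genes fell in the forced effect and had small or mixed natural effects. Of 19 cardiac progenitor genes, 15 were called lower and 1 higher in the forced effect (median -3.16), while 3 were higher and 6 lower in the natural effect (median -0.01). The difference was negative for 15 and positive for 1. The list summed to 241 to 299.7 CPM in iETV2 SP cells, against 1577 to 1736 CPM in WT SP cells, and to 1484 to 1899 CPM in Etv2-positive cells, against 1814.5 to 1980.2 CPM in Etv2-negative cells.

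Nkx2-5, a homeobox factor of the early heart (chr17:26838664-26845009, minus strand), had 0.536, 0.19 and 0.406 CPM in iETV2 SP cells, against 6.28, 5.02 and 7.8 CPM in WT SP cells. It had 12.1, 13.3 and 12.5 CPM in Etv2-positive cells, against 2.36, 2.63 and 2.08 CPM in Etv2-negative cells. The 2 contrasts thus ran in opposite directions with no overlap, and the difference of -6.47 ± 0.34 was the largest of the genes that were forced lower and natural higher under the naming rule. Tbx5, a T-box factor of the first heart field, had 0.996, 1.64 and 0.946 CPM in iETV2 SP cells, against 5.14, 3.31 and 3.94 CPM in WT SP cells. Tbx5 had 13.2, 12.4 and 12.8 CPM in Etv2-positive cells, against 4.48, 4.06 and 3.61 CPM in Etv2-negative cells, with a difference of -3.45 ± 0.31.

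Other cardiac genes behaved in other ways. Gata4 fell in the forced effect alone, with 20.7, 22.5 and 16 CPM in iETV2 SP cells, against 189, 201 and 230 CPM in WT SP cells, and its natural effect was -0.01 ± 0.13. Hand2 (-5.69 forced, -0.56 natural) was lower in both, with a called negative difference. Tbx2 was too (-5.93 and -0.54), although its natural call was lost without Etv2-positive replicate 3 (-0.39) or Etv2-negative replicate 1 (-0.55) or 3 (-0.53). Isl1, of the second heart field, fell in both by a similar amount: the forced effect was -2.30 ± 0.24, the natural effect -1.91 ± 0.09, and the difference of -0.39 ± 0.25 was called only without iETV2 SP replicate 2 (-0.68). Mef2c, a MADS-box factor used by heart, vessel and blood cells, was the 1 gene of the list that rose in the forced effect. It had 17.9, 21.9 and 22.9 CPM in iETV2 SP cells, against 6.63, 4.03 and 3.01 CPM in WT SP cells. In the TGET line Mef2c had 2.73, 3.85 and 5 CPM in Etv2-positive cells, against 12.5, 14.3 and 29.3 CPM in Etv2-negative cells, and the difference was 4.47 ± 0.60.

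Genes of the contractile apparatus followed. Of 13 sarcomere genes, 11 were lower and 2 were not called in the forced effect, and the difference was negative for 11 and positive for 1, Ttn (1.51). In the natural effect 3 were higher, Tnnc1, Tpm1 and Myl4 (5 with a replicate block), and 2 lower, Ttn and Nebl; the count of lower genes was 1 without Etv2-positive replicate 1 or 2 or Etv2-negative replicate 2 or 3. Tnnc1, which codes for cardiac troponin C, had 1.07, 0.685 and 0.744 CPM in iETV2 SP cells, against 7.14, 7.75 and 6.66 CPM in WT SP cells. Tnnc1 had 15.4, 16.9 and 13.9 CPM in Etv2-positive cells, against 9.85, 7.76 and 8.35 CPM in Etv2-negative cells, and the difference was -3.94 ± 0.31. Myl4, an atrial light chain, had a forced effect of -5.07 and a natural effect of 0.62, which was not called without Etv2-positive replicate 1 (0.59) or 2 (0.55) or Etv2-negative replicate 2 (0.42). Of 9 smooth muscle genes, 4 were lower in the forced and 5 higher in the natural effect, and Cnn1, Cnn2 and Myl9 had opposite signs. The natural effect on Cnn1, 0.90, was not called without Etv2-positive replicate 2 (0.75) or Etv2-negative replicate 3 (0.69). Cnn2 (-1.83 forced, 0.98 natural) codes for a calponin and Myl9 (-1.81 and 1.43) for a myosin light chain.

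**Figure D5:**
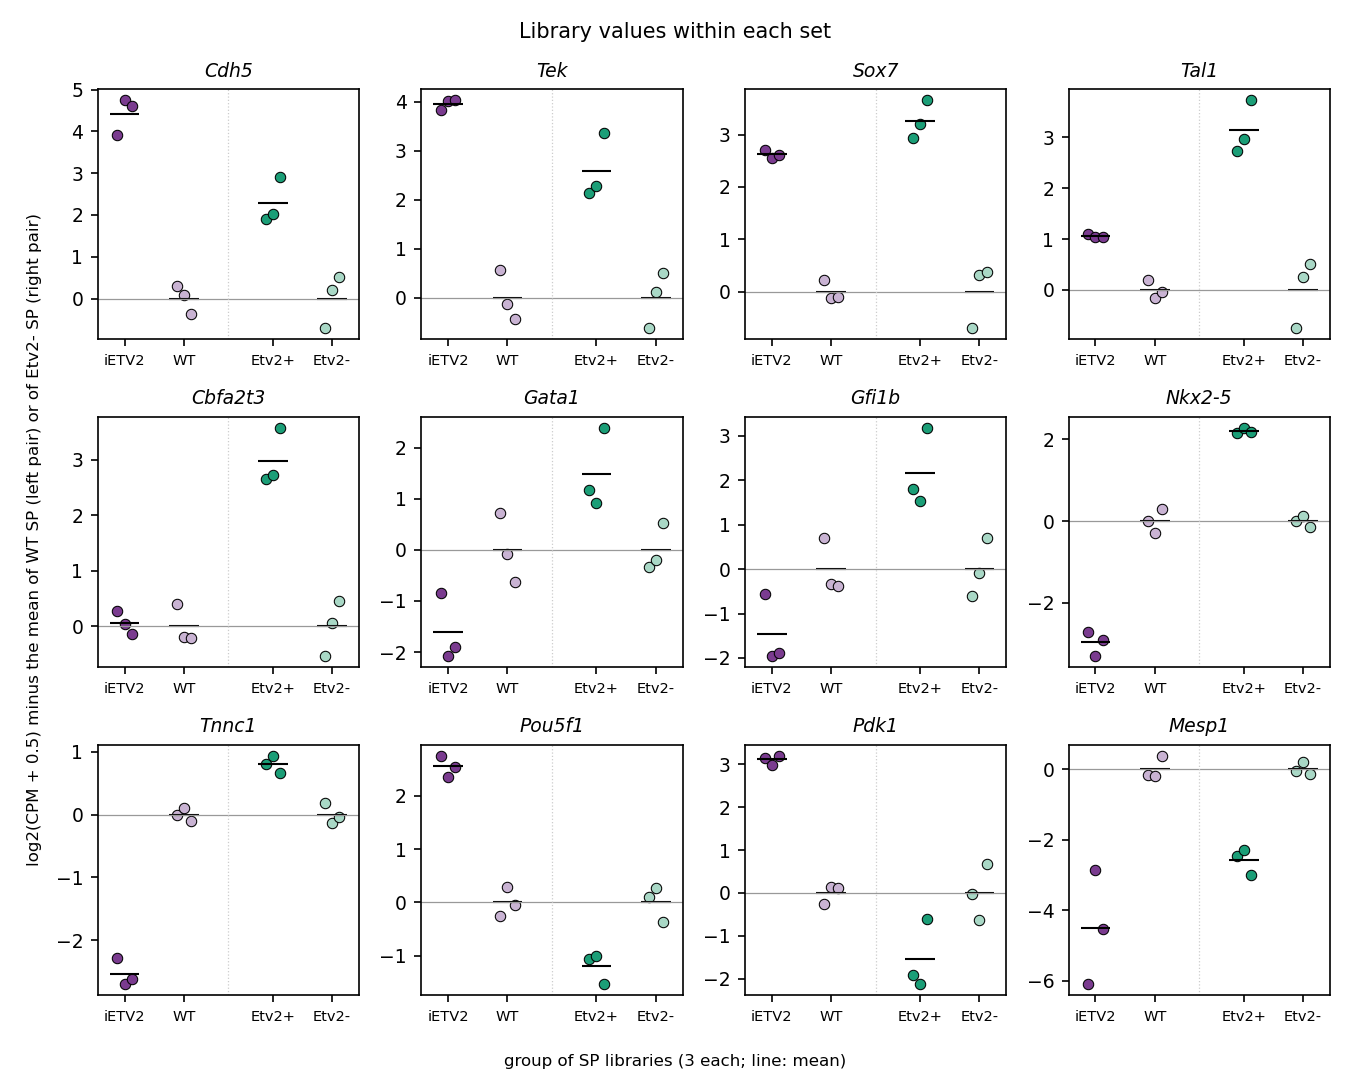
Each panel is 1 gene with its 12 libraries as log2(CPM + 0.5) minus the mean of the WT SP libraries (left pair, iETV2 then WT) or of the Etv2-negative libraries (right pair, Etv2-positive then Etv2-negative), and lines are group means. Cdh5, Tek and Sox7 rise in both pairs, Nkx2-5, Tnnc1, Gata1 and Gfi1b fall on the left and rise on the right, and Pou5f1 and Pdk1 rise on the left and fall on the right.

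Some paraxial and streak genes were lower in both effects. Of 11 paraxial mesoderm genes, 6 were called lower and 3 higher in the forced effect (median -1.88), and 7 lower and 1 higher in the natural effect (median -2.18), where 2 were higher without Etv2-positive replicate 1. The 5 genes lower in both were Tbx6, Msgn1, Mesp2, Dll3 and Aldh1a2, for which no difference was called. Tbx6, the T-box factor of presomitic mesoderm, had a forced effect of -1.88 and a natural effect of -2.20, and Msgn1, which acts beside it, had -3.81 and -2.94. Dll3, a Notch ligand of the somites, had 1.76, 6.74 and 3.38 CPM in iETV2 SP cells, against 19.9, 33 and 31.6 CPM in WT SP cells. Dll3 had 4.75, 5.93 and 3.53 CPM in Etv2-positive cells, against 22.4, 31.4 and 17.3 CPM in Etv2-negative cells. The related ligand Dll1 fell in the natural effect alone (-0.24 ± 0.20 forced, -3.21 ± 0.31 natural), and Meox1, a somite homeobox gene, had opposite signs (-2.67 forced, 0.88 natural).

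Of 21 primitive streak and nascent mesoderm genes, 12 were lower and 1 higher in the forced effect, and 10 lower and 1 higher in the natural effect; the 10 became 6 without the 2 libraries of high ribosomal RNA and 16 with a replicate block. Mesp1, the factor of nascent cardiovascular mesoderm (chr7:79792241-79793788, minus strand), fell in both. It had 0.345, 7.31 and 1.96 CPM in iETV2 SP cells, against 50.4, 49.3 and 73.7 CPM in WT SP cells, and 12.7, 14.4 and 8.63 CPM in Etv2-positive cells, against 70.5, 83.2 and 65.8 CPM in Etv2-negative cells. The difference of -1.55 ± 0.63 had an adjusted p of 0.047 (edgeR's quasi-likelihood test, Benjamini-Hochberg). This call was lost without iETV2 SP replicate 1 or 3, WT SP replicate 1 or 3, Etv2-positive replicate 1 or 2, or any Etv2-negative replicate (-1.02 to -1.66). It was also lost with DESeq2, upper-quartile scaling, TMM over all 21 libraries and the compared groups alone in the fit (-1.51 to -1.55). Cdx4, a caudal homeobox gene, had 0, 0.0761 and 0 CPM in iETV2 SP cells, against 4.39, 4.26 and 3.14 CPM in WT SP cells, so that each iETV2 library was below the 3-count floor. In the TGET cells Cdx4 had 2.47, 2.71 and 2.29 CPM in Etv2-positive cells, against 8.28, 8.44 and 6.48 CPM in Etv2-negative cells, and it was called lower in both effects. Nodal, the streak signal, had opposite signs (1.64 forced, -1.01 natural), although its natural effect was -0.60 and not called without the 2 libraries of high ribosomal RNA. Fgf3 also had opposite signs (-3.48 and 0.91).

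Lateral plate and matrix genes fell mainly in the forced effect. Of 11 lateral plate and extraembryonic genes, 10 were lower in the forced effect (median -2.70) and 3 in the natural effect (median -0.24), and the difference was negative for 8. Foxf1, a forkhead factor of the lateral plate, had 0.268, 1.79 and 0.608 CPM in iETV2 SP cells, against 74.6, 78.5 and 86.5 CPM in WT SP cells. Foxf1 had 167, 125 and 109 CPM in Etv2-positive cells, against 233, 190 and 214 CPM in Etv2-negative cells. Both decreases were called, and the difference was -5.83 ± 0.36. Bmp4, the ligand that patterns this mesoderm, had a forced effect of -2.47 and a natural effect of -0.29. Of 21 mesenchyme and matrix genes, 12 were lower and 3 higher in the forced effect. In the natural effect 3 were lower and 3 higher, near the shares over all genes (13.2% lower and 14.1% higher). With a replicate block these natural counts were 6 and 6, while 1 was lower without Etv2-positive replicate 1 or Etv2-negative replicate 1 or 2 and none without Etv2-positive replicate 3. Col1a1, a collagen of connective tissue, had 7.2, 7.5 and 3.82 CPM in iETV2 SP cells, against 234, 218 and 169 CPM in WT SP cells, and its natural effect was 0.23 ± 0.33.

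Most pluripotency genes rose in the forced effect, and some fell in the natural effect. Of 18 tested, 14 were called higher and 1 lower in the forced effect (median 1.64), and 8 were called lower and 10 were not called in the natural effect (median -0.65). The natural count of decreases was 5 without Etv2-positive replicate 1 or Etv2-negative replicate 1 and 4 without the 2 libraries of high ribosomal RNA. The difference was positive for 14 and negative for 1, Lin28a (-0.79), which codes for an RNA-binding protein. The 7 genes with called effects of opposite sign were Pou5f1, Nanog, Sox2, Utf1, Otx2, Zfp42 and Klf4. With a replicate block, or without Etv2-positive replicate 1, 1 gene was called higher in the natural effect. The list summed to 1167 to 1294 CPM in iETV2 SP cells, against 959 to 1147 CPM in WT SP cells, and to 881 to 1024 CPM in Etv2-positive cells, against 957 to 1078 CPM in Etv2-negative cells, so the second pair of sums overlapped.

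Pou5f1, which codes for the core pluripotency factor OCT4 (chr17:35506018-35510772), had 201, 153 and 175 CPM in iETV2 SP cells, against 24.6, 36.2 and 28.5 CPM in WT SP cells. It had 28, 29.1 and 20.3 CPM in Etv2-positive cells, against 63.6, 71.6 and 45.9 CPM in Etv2-negative cells. The groups were apart in both sets, and the difference was 3.79 ± 0.31; 84.1% of 50-base windows of its transcript were unique among transcripts. Nanog, its partner, had 25.2, 37 and 41.5 CPM in iETV2 SP cells, against 7.84, 18.7 and 10.9 CPM in WT SP cells. Nanog had 7.03, 4.48 and 3.46 CPM in Etv2-positive cells, against 21.1, 21 and 11.9 CPM in Etv2-negative cells, with a difference of 3.33 ± 0.44. Utf1, a chromatin protein of embryonic stem cells, had a forced effect of 4.03 and a natural effect of -1.58 that was not called without Etv2-positive replicate 1 (-1.35) or Etv2-negative replicate 1 (-1.27). Epithelial genes resembled this in part: of 10 tested, 5 were higher and 3 lower in the forced effect, and 2 were lower and 8 were not called in the natural effect. In the natural effect 1 was lower without Etv2-negative replicate 1, and 1 was higher without Etv2-positive replicate 3. Epcam, an epithelial adhesion molecule that stem cells also express, had 1.86 forced and -0.87 natural, while the keratin gene Krt8 had -1.94 and 0.00. The part of undifferentiated cells in these values was not tested.

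Some glycolysis and hypoxia genes also had opposite signs. Of 19 tested, 12 were called higher and 1 lower in the forced effect (median 0.74), and 1 was higher and 11 lower in the natural effect (median -0.42). The difference was positive for 13 and not called for 6. The 8 genes called with opposite signs were Pdk1, Bnip3, Ndrg1, Egln3, Pgk1, Ankrd37, Pfkl and Pkm. The forced call of Ndrg1 (0.78) was lost without iETV2 SP replicate 2 or 3 or WT SP replicate 1 or 2 (0.56 to 0.80). The 11 natural decreases depended on single libraries: 3 were called without Etv2-positive replicate 2 or without Etv2-negative replicate 3, 4 without Etv2-positive replicate 1 and 7 without Etv2-negative replicate 1. With a replicate block 2 were called higher and 1 difference was negative.

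Pdk1 codes for a pyruvate dehydrogenase kinase and is a hypoxia target (chr2:71873224-71903858). In iETV2 SP cells it had 325, 288 and 334 CPM, against 30.1, 39.6 and 38.9 CPM in WT SP cells. It had 13.5, 11.8 and 34.3 CPM in Etv2-positive cells, against 51.5, 33.6 and 83.5 CPM in Etv2-negative cells. In the TGET cells replicate 3 was the highest of each group and the groups overlapped. The forced effect on Pdk1 was 3.12 ± 0.16, and the natural effect of -1.50 ± 0.45 was lost without Etv2-positive replicate 1 (-1.28) or 2 (-1.23) or Etv2-negative replicate 1 (-1.55) or 3 (-1.10). The difference of 4.62 ± 0.56 stayed called under every alternative that was run. Bnip3, a mitophagy receptor induced by hypoxia, had the same shape (2.12 forced, -1.95 natural). Its natural call was lost without Etv2-positive replicate 1 (-1.69) or 2 (-1.61) or Etv2-negative replicate 3 (-1.44), and 36.8% of its windows were unique, so its level is uncertain. Pgk1, a glycolytic enzyme with 32.6% of windows unique, had 1.08 forced and -0.97 natural. Vegfa, the ligand of FLK1 and a hypoxia target, was the gene that rose in the natural effect (0.10 forced, 0.77 natural). No gene of the list was called higher in the natural effect without Etv2-positive replicate 3 or Etv2-negative replicate 1 or 2, and the difference for Vegfa (-0.67 ± 0.31) was not called.

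Among 20 ETS factors, 11 were called higher and 5 lower in the forced effect, and 9 higher and 4 lower in the natural effect, where 2 were called lower without the 2 libraries of high ribosomal RNA. The 7 higher in both were Etv2, Fli1, Erg, Elk3, Ets2, Etv6 and Spi1. Etv2 is in these counts although it was the gene induced in the forced contrast and its reporter defined the natural contrast. Elk3, a repressor of the ternary complex family, had 2.64 forced and 1.36 natural, with a called positive difference. Ets1, which endothelial cells use widely, rose in the forced effect (1.72), with a natural effect of 0.29 that was called only with no filter (0.28) and a difference of 1.43. The 3 lower in both were Elf1 and the FGF-responsive factors Etv1 and Etv5, and Etv4 had -2.93 forced and -0.21 natural, which was called only with a replicate block (-0.22). Elk1 and Erf, a repressor, had opposite signs.

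Genes of vessel subtypes were taken next. Notch4, an endothelial Notch receptor, had 39.8, 85.4 and 75.1 CPM in iETV2 SP cells, against 6.98, 6 and 5.9 CPM in WT SP cells, and 1.66, 1.89 and 2.64 CPM in Etv2-positive cells, against 1.61, 2.4 and 1.91 CPM in Etv2-negative cells. The difference was 3.35 ± 0.39. Nr2f2, the venous factor COUP-TFII, had 6.36, 15.5 and 14.3 CPM in iETV2 SP cells, against 0.549, 0.418 and 0.382 CPM in WT SP cells. Nr2f2 had 0.479, 0.296 and 1.06 CPM in Etv2-positive cells, against 0.573, 0.357 and 0.375 CPM in Etv2-negative cells (0.51 ± 0.43 natural). Of 4 venous genes tested, 2 were higher and 1 lower in the forced effect, and all 4 were not called in the natural effect. Aplnr, of the same list, had 55, 126 and 79.2 CPM in iETV2 SP cells, against 187, 209 and 212 CPM in WT SP cells. Of 13 arterial and Notch genes, 6 were higher and 4 lower in the forced effect, and 2 higher and 2 lower in the natural effect, or 5 and 4 with a replicate block. Gja4, an arterial connexin, was the gene higher in both, with a forced effect of 3.87 and a difference of 0.87 that was not called, and Efnb2, an arterial ephrin, rose in the natural effect alone (-0.01 and 0.88).

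Lists for general processes were also counted. Over all genes, 25% were called higher and 25.7% lower in the forced effect, and 14.1% and 13.2% in the natural effect. Of 29 cell cycle genes, 10 were lower and 2 higher in the forced effect, and 9 higher and 1 lower in the natural effect. The 10 forced decreases came to 6 without WT SP replicate 1 or 3 or iETV2 SP replicate 2, and to 5 without iETV2 SP replicate 3. Cdc6, which loads the replicative helicase, had -0.69 forced and 0.31 natural. Of 10 mitochondrial-encoded genes, 9 were higher in the natural effect (median 0.37), while the median forced effect was -0.03. Uniqueness of their 50-base windows ran from 0% for mt-Co2 and mt-Co3 to 100% for mt-Nd1, mt-Cytb and mt-Nd6, since parts of them have close copies among other transcripts. Mitochondrial genes took 2.67% of counts in WT SP replicate 1, against 1.72 and 1.56% in WT SP replicates 2 and 3. The forced effect on mt-Nd1 was called lower with DESeq2 (-0.37), no filter (-0.35) or a replicate block (-0.34). It was also called without WT SP replicate 2 (-0.47) or 3 (-0.49). Of 18 ATF4 targets, 4 were higher and 8 lower in the forced effect and 5 higher and 3 lower in the natural effect. Of 15 immediate early genes, which cell dissociation can induce, 5 were higher and 2 lower in the forced effect and 4 higher in the natural effect; the forced decreases came to 1 without WT SP replicate 3 or iETV2 SP replicate 1 or 2.

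Markers of endoderm, of later blood cells and of neuroectoderm were checked as other cell types that the gate could hold. The shares over all genes were 25% higher and 25.7% lower in the forced effect, and 14.1% and 13.2% in the natural effect. Of 11 endoderm genes, 1 was higher and 4 lower in the forced effect, 2 lower without iETV2 SP replicate 3, and 4 were higher and 1 lower in the natural effect. Apoa1, a lipoprotein of yolk sac endoderm and liver, was low in every library. It had 0.192, 0.343 and 0.101 CPM in iETV2 SP cells, against 0.902, 0.532 and 1.145 CPM in WT SP cells. Apoa1 had 1.25, 0.741 and 1.23 CPM in Etv2-positive cells, against 0.0358, 0.13 and 0.17 CPM in Etv2-negative cells. Replicate 3 of iETV2 SP and replicate 1 of the Etv2-negative cells were below the 3-count floor. Its forced effect was -2.01, which was not called without iETV2 SP replicate 3 (-1.64). Its natural effect was 3.20 and the difference -5.21, and these sizes rest on few counts. Of 12 megakaryocyte and myeloid genes, 3 could be tested, and the list summed to 4.64 to 6.22 CPM in iETV2 SP cells, against 3.99 to 5.36 CPM in WT SP cells, and to 3.57 to 4.59 CPM in Etv2-positive cells, against 2.28 to 2.66 CPM in Etv2-negative cells. Gp1bb and Elane had no count in any of these groups, but Gp1bb shares 92.9% of its exon bases with other genes on its strand, so its 0 is uncertain. Of 12 neuroectoderm genes 5 could be tested, and Sox3, which pluripotent cells also express, had 2.55 forced and -0.03 natural. The part of such cells in the results above was not tested.

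The remaining genes were taken by size, from protein-coding genes of at least 5 CPM in each set. The 10 largest shared increases were Vwf, Tek, Pcdh12, Sox7, Edil3, Cdh5, Lcp1, Lyl1, Tspan18 and Atp2a3, with forced effects of 2.02 to 4.47 and natural effects of 2.00 to 3.33. Lcp1, an actin-bundling protein of blood cells, had a difference of 0.67 with an adjusted p of 0.055 (edgeR's quasi-likelihood test, Benjamini-Hochberg). It was called with DESeq2, upper-quartile scaling, TMM over all 21 libraries, both other filters and separate fits (0.66 to 0.72), with a replicate block (0.63) and without iETV2 SP replicate 1 (0.91), Etv2-negative replicate 2 (0.77) or 3 (0.79) or WT SP replicate 3 (0.76). The differences of Tspan18 (0.50) and Atp2a3 (0.47) were not called, but were with a replicate block (0.52 for each), and that of Atp2a3 also without Etv2-positive replicate 3 (1.01). The 10 largest shared decreases were Mesp1, Col9a1, Cyp2s1, Dll3, Frzb, Slit1, Itga8, Isl1, Nog and Robo2. Frzb and Nog code for secreted inhibitors of Wnt and BMP signals, and Slit1 and Robo2 for a guidance ligand and a receptor of that family. The difference of Col9a1 (-1.51) was lost without iETV2 SP replicate 1 or 3, WT SP replicate 1 or Etv2-positive replicate 1 (-1.10 to -1.39). For Robo2 (-1.57) it was lost without iETV2 SP replicate 3, WT SP replicate 2, Etv2-positive replicate 1 or 2 or Etv2-negative replicate 1 (-1.09 to -1.50). Differences that were not called became so for Slit1 without iETV2 SP replicate 2 (-0.96), for Frzb with a replicate block (-1.07) and for Itga8 with that block (0.88) or without iETV2 SP replicate 1 (1.18), WT SP replicate 2 (1.11) or Etv2-positive replicate 2 (1.14). Nog had 0.383, 0.952 and 0.372 CPM in iETV2 SP cells, against 5.88, 6.65 and 6.11 CPM in WT SP cells, and 1.8, 2.3 and 1.33 CPM in Etv2-positive cells, against 6.2, 6.88 and 6.07 CPM in Etv2-negative cells.

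Among genes called with the same sign in both effects, those named for the largest positive and the largest negative differences were stronger in the forced effect. Other genes went the other way. The natural effect was the larger, by a called difference, for 30 genes higher in both, such as Tal1 above, and for 6 lower in both. Dysf, a membrane repair protein (3.74 forced, 1.23 natural), Arhgap31, a regulator of small GTPases (3.38 and 1.35), and Spns2, the endothelial exporter of sphingosine-1-phosphate (3.56 and 1.14), were higher in both, beside Cdh5. The natural call of Spns2 was lost without Etv2-positive replicate 3 (0.70) or Etv2-negative replicate 1 (1.15) or 2 (1.03), and those of Arhgap31 (1.13) and Phlda2 (-0.58) without the 2 libraries of high ribosomal RNA. Foxf1, Tbx2, Hand2 and Phlda2, an imprinted gene (-5.56 and -0.74), were lower in both. Their differences ran from -4.82 to -5.83.

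In the forced effect alone 2567 genes were called higher. Those with the largest called differences and a small natural effect were, besides Hprt, Selenop, Lrp2, Myo6, Prex2 and Heph. Selenop, a selenium carrier, had 155, 264 and 248 CPM in iETV2 SP cells, against 15.2, 14.5 and 12.3 CPM in WT SP cells, and its natural effect was 0.25 ± 0.14. Lrp2, the endocytic receptor megalin, had 2.98 forced and -0.39 natural, which was called with no filter (-0.40). Heph, a copper enzyme, had 2.51 and -0.26, and its natural effect was called lower without Etv2-positive replicate 3 (-0.63). Among the decreases were Rgs5, Myl7, Col1a1, Zbtb7c, Bmp5 and Tgfb2, with forced effects of -4.47 to -6.08. With no filter the natural effect was also called for Rgs5 (0.34), Myl7 (-0.35), Col1a1 (0.22), Bmp5 (-0.43) and Tgfb2 (0.31). Rgs5, a pericyte regulator of G proteins, had 1.03, 7.27 and 3.11 CPM in iETV2 SP cells, against 164, 188 and 194 CPM in WT SP cells. The natural effect on Rgs5 was 0.35, and 0.51 and called without Etv2-positive replicate 3. Myl7, the atrial regulatory light chain, had 0.192, 0.381 and 0.304 CPM in iETV2 SP cells, against 21.4, 16.8 and 22.2 CPM in WT SP cells, and its natural effect was -0.34 ± 0.17. Bmp5 shares 46.7% of its exon bases with a gene on the other strand, so its level is uncertain.

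In the natural effect alone 709 genes were called higher. Those with the largest called differences and a small forced effect were Slc32a1, Cbfa2t3, Tnfaip2, Slc1a3, Ikzf1 and Hapln1. Slc32a1, a vesicular transporter of inhibitory transmitters, had 7.44, 8.34 and 22.9 CPM in Etv2-positive cells, against 0.251, 0.942 and 1.98 CPM in Etv2-negative cells. Its forced effect was -0.01 ± 0.31. With no filter the forced effect on Hapln1 was called (0.37). In each of these 6 genes Etv2-positive replicate 3 was the highest TGET SP library, and it is 1 of the 2 with high ribosomal RNA; all 6 natural calls held without both of those libraries. Among the decreases were Dll1, Ndufa4l2, Ntn1, Fst, Sfrp1 and Fgf8, with natural effects of -1.28 to -3.21. The forced effect was called higher for Ndufa4l2 with a replicate block or no filter (0.44 each) and without WT SP replicate 3 (0.63), and for Fst without iETV2 SP replicate 1 (0.89). Without both libraries of high ribosomal RNA, the natural effects of Fst (-0.90) and Ntn1 (-2.38) were not called. Fgf8, the streak ligand, had 12.7, 44.9 and 29.9 CPM in iETV2 SP cells, against 30.8, 39.8 and 35.6 CPM in WT SP cells, and 6.59, 9.01 and 3.94 CPM in Etv2-positive cells, against 23.8, 31.9 and 14.3 CPM in Etv2-negative cells. Its difference of 1.57 was lost without iETV2 SP replicate 2 (1.14), Etv2-positive replicate 3 (1.31) or Etv2-negative replicate 2 (1.28). That of Fst (1.72) was lost without iETV2 SP replicate 2, WT SP replicate 1, Etv2-positive replicate 3 or Etv2-negative replicate 2 (1.17 to 1.60). For Ntn1 (2.40) the call was lost without any Etv2-positive replicate, iETV2 SP replicate 2 or 3, Etv2-negative replicate 1 or 2 or WT SP replicate 1 or 3 (1.69 to 2.57).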

How the data were processed

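RNA was made into libraries with a stranded total RNA kit, per the labels' protocols. Read counts per gene were made by the authors and deposited as whole numbers for 55487 gene identifiers, of which 55227 were named through GENCODE. Counts of the iETV2 and WT libraries were deposited library by library, and those of the TGET libraries together in a joint matrix. The submitters' processing notes name featureCounts and mm10; the strand setting is not given in the sources used here. The files of the iETV2 and WT libraries also hold rows of unassigned reads, which entered neither library sizes nor tests: unmapped 3.95 to 5.17%, multimapping 7.34 to 8.29%, no feature 5.19 to 6.69% and ambiguous 4.6 to 4.91%. The 2 sets were therefore normalised apart and only effects were compared.

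Counts were scaled by TMM within each set and tested with edgeR 4.0.16 (quasi-likelihood, R 4.3.3) after its filter on low counts. The forced effect came from a fit of the 9 iETV2 and WT libraries, the natural effect from a fit of the 12 TGET libraries, and the difference from 1 fit of all 21 libraries with 7 group terms. A standard error is the log2 fold change over the square root of F. The scripts were tested on simulated counts.

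Members and gene lists were chosen with earlier results of these data known. Named genes came from protein-coding genes of at least 5 CPM in each set whose groups do not overlap: the largest shared increases and decreases, opposite effects, single effects and same-sign differences, with Etv2, Kdr, Pdgfra and T always and up to 4 genes per list by difference. For single effects, groups had to be apart only in the set of the called effect, and the other effect had to be small. Other genes named to describe a list were chosen after their values were seen. Transcripts were scanned in 50-base windows every 10 bases for uniqueness, and 68 of 431 genes had under 90% unique.

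The labels give the groups the same replicate numbers. Deviations of same-numbered TGET SP libraries correlated (r of 0.45, 0.23 and 0.37), which is evidence from the data that they are pairs. In the iETV2 and WT libraries they did not all do so (0.26, 0.14 and -0.15). The main fits held group terms alone, with no term for pairs, and the replicate block was run as an alternative. With that block the natural effect called 2764 genes higher and 2681 lower, against 2314 and 2190 in the main fit. Alternatives were DESeq2 1.42.0, other scalings and filters, separate fits, a replicate block, a minimum change of 2-fold, and fits that omit 1 library or both of high ribosomal RNA. Intervals from counting alone were not used, since the spread between libraries sets the error.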

Additional observations from a re-analysis of the deposited data

Results flagged for a closer look

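The 16 named genes called with opposite signs in the 2 effects were picked by the naming rule. The rule asks that the difference, forced minus natural, be called by edgeR's quasi-likelihood test (Benjamini-Hochberg). That condition adds nothing here, since the difference was called for all 1659 genes of opposite sign. The rule also asks that the compared groups not overlap in either set, as was so for 31.1% of genes tested in both sets. The 16 genes are the 8 of each direction with the largest difference among protein-coding genes that met the rule's minimum of 5 CPM. The values are the log2 differences. Genes that were forced higher and natural lower were Mef2c (4.47), Hmcn1, a basement membrane protein (4.38), Bnip3 (4.07), Map3k9, a kinase of the JNK cascade (3.89), Ddit4, an inhibitor of mTOR signalling (3.87), Aldoc, a glycolytic aldolase (3.84), Pou5f1 (3.79) and Lbh, a transcription cofactor of limb and heart (3.61). The natural effect was not called for Ddit4 without Etv2-positive replicate 1 (-1.42) or 2 (-1.52) or Etv2-negative replicate 3 (-1.12). For Aldoc it was not called without Etv2-positive replicate 1 (-1.45) or 2 (-1.44) or Etv2-negative replicate 1 (-1.78) or 3 (-1.06). Genes that were forced lower and natural higher were Nkx2-5 (-6.47), Myl4 (-5.68), Pdlim3, a protein of the Z-disc (-5.38), Parm1 (-5.03), Hoxb2, a homeobox gene of the hindbrain and other axial tissues (-4.998), Shisa8 (-4.72), Pcsk5, a proprotein convertase (-4.68), and Gfi1b (-4.45). The natural effect on Hoxb2 was 0.55 and not called without the 2 libraries of high ribosomal RNA.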

How the results depend on the processing

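With a 2-fold minimum the forced effect called 2119 genes higher and 1029 lower, the natural effect 322 and 583, and the difference was positive for 2078 and negative for 1044. Genes higher in both were then 154 and lower in both 137, with 138 forced higher and natural lower and 36 forced lower and natural higher, so the same-sign share was 62.6%; it was 42.2% with no filter. Without the 2 TGET SP libraries of high ribosomal RNA the natural effect called 1286 genes higher and 1168 lower, with 320 higher in both, 239 lower in both, 429 forced higher and natural lower and 527 forced lower and natural higher. Leaving out 1 library at a time gave 3742 to 4265 genes forced higher and 2973 to 3675 forced lower, 1671 to 1845 natural higher and 1562 to 1757 natural lower. The difference was then positive for 3652 to 4074 and negative for 3384 to 3812, with 417 to 517 higher in both, 308 to 445 lower in both, 533 to 734 forced higher and natural lower, 625 to 882 forced lower and natural higher, and a same-sign share of 36.4 to 41.3%. With a replicate block the natural effect called 2764 higher and 2681 lower, the forced effect 4585 and 4359 and the difference 4265 and 4227, while opposite genes came to 953 and 1129. The block also changed calls named beside their genes and lists above. The causes of these shifts were not tested, beyond the fewer libraries or the stricter rule that the settings themselves bring. Of 7512 recomputed values of named genes, 7287 kept their side of the threshold, 131 lost a call, 94 gained one and 0 changed sign while called. Values below 0.098 to 0.125 CPM, or 3 counts, cannot be told from 0 at this depth.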
